A study of Mus musculus with 4 samples.

Results

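Mitosis genes encode the machinery that condenses, aligns and separates chromosomes and then divides the cell. The list examined here holds 50 such genes, chosen by name for their known roles, but with earlier results of these data known. Of these, 42 had at least 1 probe set under their symbol on the array, with 58 probe sets in all, out of 8236 genes with a single symbol and 12469 rows of the table. No probe set under the symbols Bub1b, Ccnb1, Cdc25b, Cenpf, Espl1, Hmmr, Ncapd2 or Tpx2 was used. A probe set was tested where at least 2 of the 4 arrays exceeded the median of all values (145.05), which kept 50 probe sets of 41 members. Only Cenpe, a kinetochore motor, was left out by this filter, since both of its probe sets stayed under the floor of 40.3 on every array. Where a gene had several tested probe sets, the brightest one stands for the gene unless another is named.

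Expression had been measured in 4 clones of c17.2, a mouse neural stem cell line made immortal in culture, all kept under proliferating conditions, with 1 Affymetrix array per clone. Clone 42 and clone 48 carried a stable transfection of the orphan nuclear receptor Nurr1 (gene Nr4a2). PuroB and puroD carried the empty puromycin vector, so stable transfection is common to all 4 lines. The description of each sample names its match, clone 42 with puroB and clone 48 with puroD, for similar proliferation rates, whereas the design text gives clone 42 as the number in both pairs and c48 as the abbreviation in the second. Each line is a single clone, so any difference between 2 arrays also holds whatever else separates these clones, and there were 2 clones per group. Nr4a2 was lower, not higher, in the transfected member of both pairs (log2 differences of -0.60 and -0.30 at the probe set 92248_at, and -0.98 and -0.91 at 92249_g_at), so clones 42 and 48 are called Nurr1-labelled.

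In a dividing cell, cyclin-dependent kinase 1 with its A and B cyclins starts mitosis, Polo and Aurora kinases build the spindle, and kinesin motors move chromosomes along it. A checkpoint holds the anaphase-promoting complex back until all kinetochores are attached. Most of these transcripts are made in G2 and M phase, so in bulk RNA their level follows how many cells are in these phases as well as how much each cell makes. Fewer cells in mitosis and less transcript per cell cannot be told apart in these arrays.

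The arrays had median signals between 125.6 and 160.1. The 3' to 5' signal ratio of actin, which reflects RNA integrity, was 1.68 in clone 42 and 1.51 in puroB, but 2.41 in clone 48 and 2.0 in puroD. The same ratio of Gapdh separated the pairs less, with 0.94 in clone 42, 0.86 in puroB, 1.24 in clone 48 and 0.97 in puroD. Of the neural stem and progenitor markers, whose sums lay between 5606 and 7576, nestin (Nes) had signals between 3027 and 3716. The other 6 of 7 tested were lower in both pairs, among them Fabp7, a radial glia marker (-1.20 and -3.29; limma adjusted p = 0.0503), and the medians of the 7 were -0.44 and -0.47. Sox1, Pax6, Hes5, Prom1, Vim and Msi1 did not pass the filter. The summed signal of 9 neuron markers, of which 4 were tested, was 6948 and 5511 in clones 42 and 48. In puroB and puroD it was 3438 and 3401, with Snap25 and Syp at the floor on all 4 arrays. Most of it came from Tubb3 (5683, 4628, 2701 and 2701 in clone 42, clone 48, puroB and puroD). Of the 4 tested, 3 were higher in both pairs and Stmn2 in the first only. The untested Map2, Dcx and Gap43 were lower in both pairs. For 8 fibroblast and mesenchymal markers, 6 of them tested and Acta2 at the floor throughout, the sums were 11979, 8239, 4611 and 5395 in the same order of clones. Most of these sums came from Col3a1, Col1a2 and Snai2. Of the 6 tested, Col3a1 and Snai2 were higher in both pairs and Twist1 was lower in both. The others changed sign between the pairs. The summed signal of astrocyte markers lay between 3320 and 5199 and that of oligodendrocyte markers between 280 and 566, with Aqp4 and Mog at the floor on all arrays. Among microglia and macrophage markers (sums of 576 to 944) Aif1 and Ptprc were at the floor on all arrays, and among endothelial markers (3399 to 4589) Cdh5 and Tek. Most of the endothelial sums came from Eng. The part of these markers and ratios in the results below was not tested.

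The mitosis genes were lowest in clone 42. The array of clone 42 gave the lowest of the 4 signals for 38 of 41 tested members, whereas it was the lowest for 30.2% of all 4957 tested genes. The exceptions were Cks2 and Stmn1, lowest in puroB, and Pttg1, lowest in puroD. The highest signal came from clone 48 for 19 members and from puroD for 16, against 24.2% and 21.3% of all genes. Clone 42 was at least 2-fold under clone 48, the other Nurr1-labelled clone, for 27 members (4.94% of all genes), with a median log2 difference of -1.21 over the members and 0.017 over all genes. The control clones differed as well: 32 members were lower in puroB than in puroD, against 44.0% of all genes, with a median of -0.26. The most frequent order, from low to high, was clone 42, puroB, puroD and clone 48, in 16 members and 6.07% of all genes. The same order with puroD and clone 48 exchanged was found in 10 members and 4.72% of all genes.

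**Figure D1:**
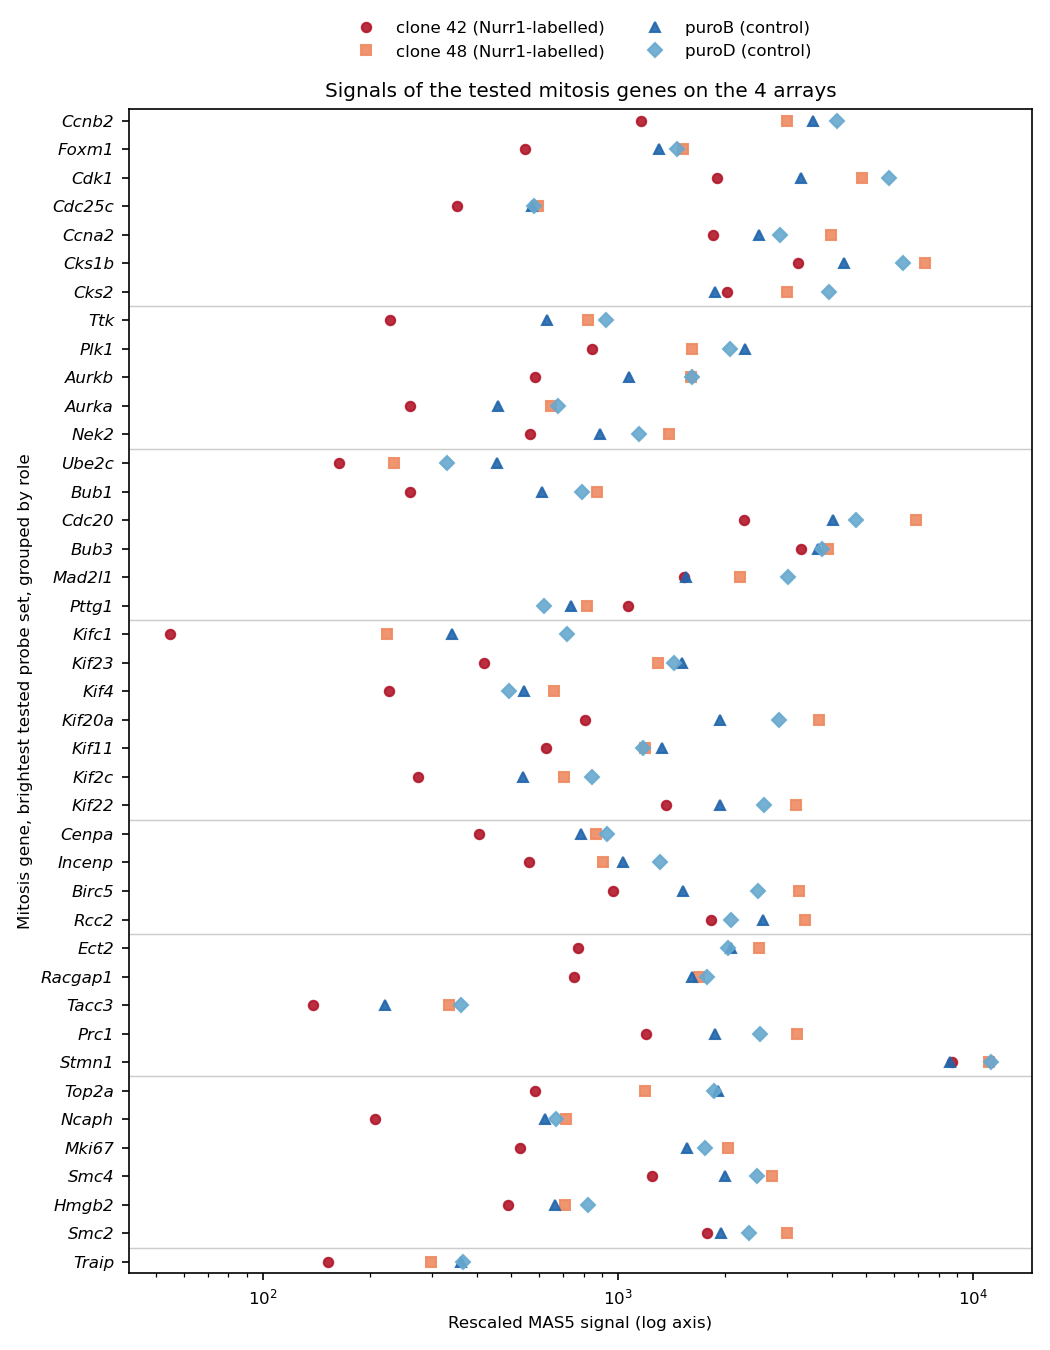
Signal of each of the 41 tested mitosis genes (rows, grouped by role) on the 4 arrays, on a log axis; each symbol is 1 array, and there are no replicate arrays of a clone. The dark red circle of clone 42 is the leftmost symbol in 38 rows.

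Within the matched pairs, the mitosis genes differed in the pair of clone 42 and were centred near 0 in that of clone 48. In the first pair 38 members were lower in clone 42 than in puroB, where 55.4% of all genes were, with a median log2 difference of -0.88 against -0.065 over all genes. At least 2-fold lower were 17 members (4.78% of all genes), and 0 were at least 2-fold higher (3.53%). In the second pair 20 members were lower and 21 higher in clone 48 than in puroD (50.5% of all genes were lower), with a median of 0.024. Only Kifc1 was at least 2-fold lower there (2.95% of all genes). With arrays scaled to their medians, which moved the median of all genes in the second pair from -0.0037 to 0.21, 37 members were lower in the first pair and 11 in the second. The log2 difference was smaller in the first pair than in the second for 37 of 41 members, against 53.5% of all genes. It was negative in both pairs for 18 members (28.3% of all genes), and negative in the first and positive in the second for 20 (27.1%). In 11 of these 20 the pairs were also at least 2-fold apart, as in 6.09% of all genes. With 1 array per clone these pair differences have no test.

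The 2 pairs share no array, so the size of the difference can be set side by side. Across the 41 members the log2 differences of both pairs had a Pearson r of 0.47 and a Spearman rho of 0.35, and across all 4957 tested genes 0.065 and 0.042. Without Kifc1 the members' values were 0.27 and 0.30 (n = 40). Genes are not independent replicates, and the arrays of each Nurr1-labelled clone share whatever that clone and its control have in common, so these values are descriptions. Kifc1 lies far from the other members in both directions of the plot of pair differences.

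**Figure D2:**
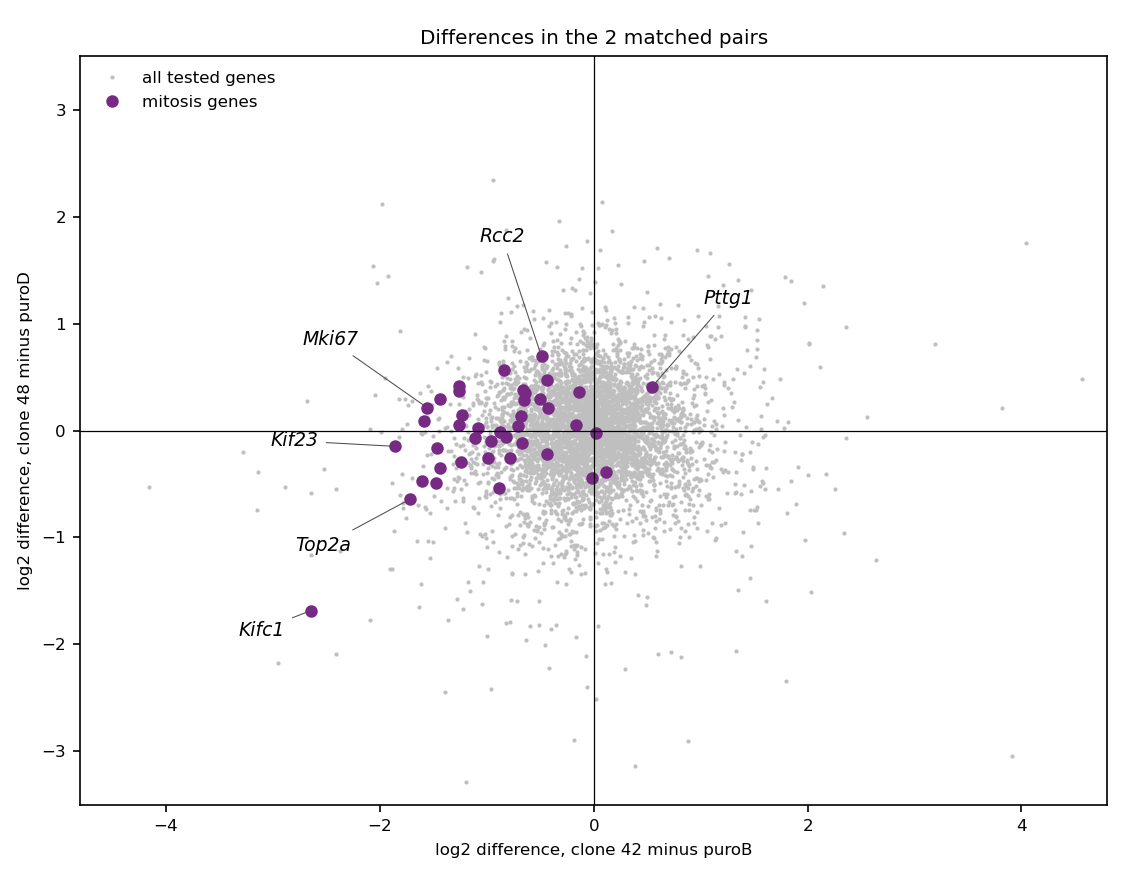
log2 difference of clone 42 minus puroB (horizontal) against clone 48 minus puroD (vertical) for the 41 mitosis genes (purple) and all 4957 tested genes (grey). Most purple points lie left of 0 but on both sides of the horizontal line, and Kifc1, at -2.64 and -1.68, is at the lower left.

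Over both pairs, 1 of 50 tested member probe sets passed limma's test with Benjamini-Hochberg adjustment over all 6419 probe sets. This was Kifc1, as lower, where 0.0467% of all probe sets passed in that direction. No member probe set passed as higher, where 0.0623% of all did. In that direction 0 member probe sets had an unadjusted p under 0.05, as did 2.36% of all tested genes. With so small a share, the 0 is not read as a result. On the lower side 13 member probe sets had an unadjusted p under 0.05, against 5.06% of all probe sets. The median over members of the mean log2 difference was -0.44, and -0.024 over all genes. Without clone 42 the members' median was 0.16, and without clone 48 it was -1.08. Leaving out clone 48 gave 8 members that passed, among 51 probe sets in all, in a fit without the pairing. Leaving out clone 42, puroB or puroD in the same way gave 0 members, among 17, 0 and 2 probe sets, against 7 probe sets in all with 4 arrays and the pairing.

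Many promoters of mitotic genes are known to carry CCAAT boxes, bound by the factor NF-Y, and a cell cycle genes homology region (CHR), bound by the DREAM and MuvB complexes, which repress them in resting cells and activate them toward mitosis. RefSeq promoter windows of assembly GRCm38.p6, from 250 bases before to 50 bases after an annotated start, were matched by symbol for 41 of the 50 members, in 44 windows. The letters CCAAT, on either strand, were in 37 of the 44 windows (84.1%), against 37.4% of all 32851 windows of that length. The CHR core TTTGAA, on either strand, was in 32 (72.7%), against 17.9% of all windows. Both were in 31 (70.5%), against 6.95% of all, and no match to the one overlapped a match to the other. Among the members with a window and a tested probe set, the median log2 difference in the first pair was -1.10 for the 24 with a CHR core and -0.66 for the 9 without. In the second pair it was -0.085 and 0.15. A match is a run of letters and no measurement of binding.

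The 100 bases before the annotated start are shown for members that differ in their values, with matches to either motif in capitals. Top2a (chr11:99024190-99024289, minus strand), Ube2c (chr2:164769829-164769928, plus strand) and Ccnb2 (chr9:70421555-70421654, minus strand) were lower than both controls in both Nurr1-labelled clones. Cdk1 (chr10:69352913-69353012, minus strand) and Kif11 (chr19:37376282-37376381, plus strand) hold both motifs in a short stretch. Kifc1 (chr17:33890634-33890733, minus strand) is the member that passed the test, and Pttg1 (chr11:43425982-43426081, minus strand) the member higher in both pairs.
Top2a: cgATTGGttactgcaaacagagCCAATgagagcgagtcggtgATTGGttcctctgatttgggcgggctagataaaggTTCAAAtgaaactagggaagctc
Ube2c: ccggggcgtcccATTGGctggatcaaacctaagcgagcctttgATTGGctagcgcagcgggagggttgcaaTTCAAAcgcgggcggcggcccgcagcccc
Ccnb2: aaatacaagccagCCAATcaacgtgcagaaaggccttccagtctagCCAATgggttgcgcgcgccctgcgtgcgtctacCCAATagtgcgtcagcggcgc
Cdk1: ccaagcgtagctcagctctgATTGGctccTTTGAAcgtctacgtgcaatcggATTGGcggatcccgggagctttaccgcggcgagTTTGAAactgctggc
Kif11: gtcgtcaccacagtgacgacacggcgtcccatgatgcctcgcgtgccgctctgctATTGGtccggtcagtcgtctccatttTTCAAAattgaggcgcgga
Kifc1: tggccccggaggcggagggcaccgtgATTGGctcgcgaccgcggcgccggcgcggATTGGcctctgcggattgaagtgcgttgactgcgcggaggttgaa
Pttg1: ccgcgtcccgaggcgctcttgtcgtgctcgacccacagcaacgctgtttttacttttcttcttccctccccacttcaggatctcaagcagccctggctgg
In these stretches Top2a and Ccnb2 each show 3 CCAAT matches, Ube2c, Cdk1 and Kifc1 2, Kif11 1 and Pttg1 0. CHR matches number 2 in Cdk1, 1 in each of Top2a, Ube2c and Kif11, and 0 in Ccnb2, Kifc1 and Pttg1. Outside the printed stretch, further CHR matches of Ccnb2 begin at position -167 and 4 relative to the annotated start, and 1 of Kifc1 at position 1.

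**Figure D3:**
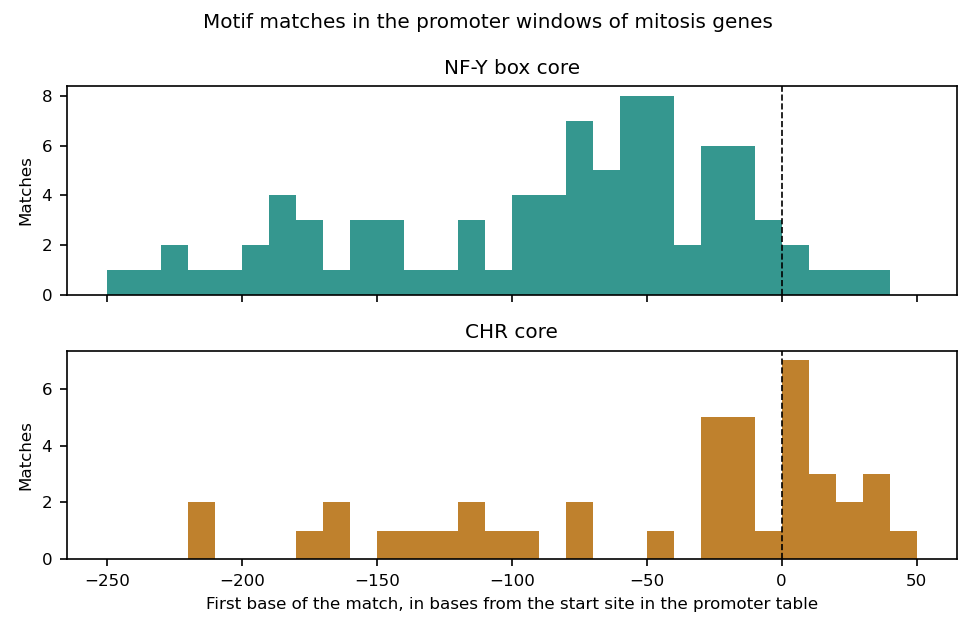
Number of motif matches by distance of their first base from the annotated start, in bins of 10 bases, over the 44 promoter windows of mitosis genes; the upper panel counts the CCAAT core (NF-Y box) and the lower panel the CHR core. CHR matches are most frequent around the start and CCAAT matches within the 100 bases before it. A site in overlapping windows of the same gene is counted in each window.

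The genes of entry into mitosis were lower in clone 42 than in puroB in 6 of 7 cases, with a median of -0.71, and 0.044 in the second pair. Ccnb2, a B cyclin that activates Cdk1, had signals of 1158 and 2991 in clones 42 and 48, and 3534 and 4145 in puroB and puroD. Both Nurr1-labelled clones were under both controls, with log2 differences of -1.61 and -0.47 averaging -1.04 ± 0.35 (SE; limma adjusted p = 0.361). Here and below, SE is limma's moderated standard error, with 2 clones in each group. It draws mostly on the variance of other probe sets and is not the spread of the 2 printed differences. Foxm1, a transcription factor that drives mitotic genes, had 547 and 1521 in clones 42 and 48, next to 1308 and 1466 in puroB and puroD. Clone 42 alone stood apart there, 2.39-fold under puroB, while the other 3 arrays lay close together. Cdk1, the mitotic kinase itself, had 1897, 4868, 3274 and 5811 in clone 42, clone 48, puroB and puroD. Its 2 lower signals were those of the first pair and its 2 higher those of the second, and puroD exceeded puroB 1.77-fold, as much as puroB exceeded clone 42 (1.73-fold).

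The other members of this role differed less between clone 42 and puroB. Cdc25c, a phosphatase that removes the brake on Cdk1, had 352 in clone 42 and between 574 and 597 in the other clones. Cyclin Ccna2 had 1848 in clone 42 and 3970 in clone 48, with both controls between (2496 and 2865). The Cdk-binding subunit Cks1b had 3226, 7333, 4329 and 6339 in clone 42, clone 48, puroB and puroD, so that the second pair was again the higher one. Its relative Cks2 had 2024, 3000, 1871 and 3924, and here puroB, not clone 42, was lowest.

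All 5 mitotic kinases were lower in clone 42 than in puroB, with a median of -0.88, and 4 of 5 were lower in clone 48 than in puroD, with a median of -0.064. Ttk, a kinase of the spindle checkpoint, had signals of 229 and 826 in clones 42 and 48, next to 633 and 927 in puroB and puroD. Its clone 42 signal lay 2.77-fold under puroB, and its clone 48 signal 1.12-fold under puroD. Plk1, which acts from spindle assembly to cytokinesis, had 843, 1622, 2282 and 2072 in clone 42, clone 48, puroB and puroD, with both controls above both Nurr1-labelled clones (mean log2 difference -0.90 ± 0.34, SE; limma adjusted p = 0.478). Both Aurora kinases had the same order of arrays as each other. Aurka, at spindle poles, had 260, 647, 460 and 676, and Aurkb, of the chromosomal passenger complex, 585, 1603, 1075 and 1615. For both, clone 48 and puroD nearly coincided (-0.06 and -0.01 on the log2 scale), and clone 42 was the lowest. Nek2, which separates centrosomes, had 566, 1396, 892 and 1144, with clone 48 the highest.

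Among checkpoint and anaphase genes, 5 of 6 were lower in clone 42 than in puroB, with a median of -0.50, and 2 were lower in clone 48 than in puroD, with a median of 0.10. Ube2c, the ubiquitin-conjugating enzyme of the anaphase-promoting complex, had 163 and 234 in clones 42 and 48, and 455 and 329 in puroB and puroD. Both controls were higher, and puroB was the highest, at a probe set (161137_r_at) whose suffix marks relaxed design rules (mean log2 difference -0.99 ± 0.33, SE; limma adjusted p = 0.371). The checkpoint kinase Bub1 had 260 in clone 42 and 876 in clone 48, with 613 in puroB and 791 in puroD. Here the Nurr1-labelled clones held the lowest and the highest signal, and differed 3.37-fold from each other. Cdc20, the activator of the anaphase-promoting complex, showed the same spread, with 2259, 6931, 4045 and 4676 in clone 42, clone 48, puroB and puroD.

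The remaining checkpoint members differed less between clone 42 and puroB. Bub3 had signals between 3271 and 3913 on all 4 arrays. Mad2l1, which with Bub3 inhibits Cdc20, had 1537 in clone 42 and 1558 in puroB, against 2208 in clone 48 and 3008 in puroD, so its arrays separated by pair and not by label. Pttg1, the securin that guards cohesin until anaphase, was the 1 member higher in both pairs: 1071 and 818 in clones 42 and 48, and 736 and 618 in puroB and puroD (mean log2 difference 0.47 ± 0.29, SE; limma adjusted p = 0.844). Its probe set, 101027_s_at, carries the suffix that Affymetrix gives to probes shared by several transcripts.

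The kinesin motors had the lowest median of the roles with several members in the first pair, -1.26, with all 7 lower in clone 42 than in puroB and 5 at least 2-fold lower. In the second pair 3 were lower and 4 higher, with a median of 0.024. Kifc1, a minus-end directed motor that focuses spindle poles, had signals of 54.7 and 224 in clones 42 and 48, and 342 and 719 in puroB and puroD. All 4 arrays were far apart, the controls by 2.11-fold, and both Nurr1-labelled clones were below both controls. Its mean log2 difference was -2.16 ± 0.35 (SE, n = 2 clones per group; limma adjusted p = 0.0487). The clone 42 signal was under 62.7, the highest signal on that array of the Dap, Lys, Phe, Thr and Trpn controls, taken as not spiked in, so the size of the difference in the first pair, 6.25-fold, is uncertain. The suffix of this probe set, 98471_f_at, marks probes shared by a sequence family, so transcripts of related genes may add to it. At about the same difference (-2.16 to -2.06), limma's adjusted p was 0.785 without the pairing, 0.372 with quantile normalization, 0.0625 with no floor and 0.903 with no filter, so the call depends on these settings. In fits that left out 1 array and also the pairing, the mean was -1.15 (adjusted p = 0.486) without clone 42, -3.18 (0.00414) without clone 48, -2.70 (0.244) without puroB and -1.63 (1.00) without puroD.

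Kif23, a motor of the central spindle needed for cytokinesis, had 419 in clone 42 against 1297 in clone 48, 1518 in puroB and 1437 in puroD. Kif4, the chromokinesin that shapes chromosome arms, had 226, 660, 542 and 493 in clone 42, clone 48, puroB and puroD, and Kif11, which pushes spindle poles apart, 626, 1196, 1329 and 1176. In each of these 3 genes clone 42 was lowest by over 2-fold against its matched control and the other clones lay within a narrower range. Kif20a, of the central spindle, had 810, 3691, 1943 and 2847, a 4.56-fold difference between the Nurr1-labelled clones. This probe set, 161856_f_at, has the same suffix as that of Kifc1, and at 160501_at the difference was 3.04-fold. Kif2c, which depolymerises microtubules at centromeres, had 273, 707, 541 and 843, and Kif22, a chromosome arm motor, 1370, 3171, 1945 and 2577, both with the second pair above the first. The Kif22 probe set, 95118_r_at, has the suffix of relaxed design rules named for Ube2c.

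**Figure D4:**
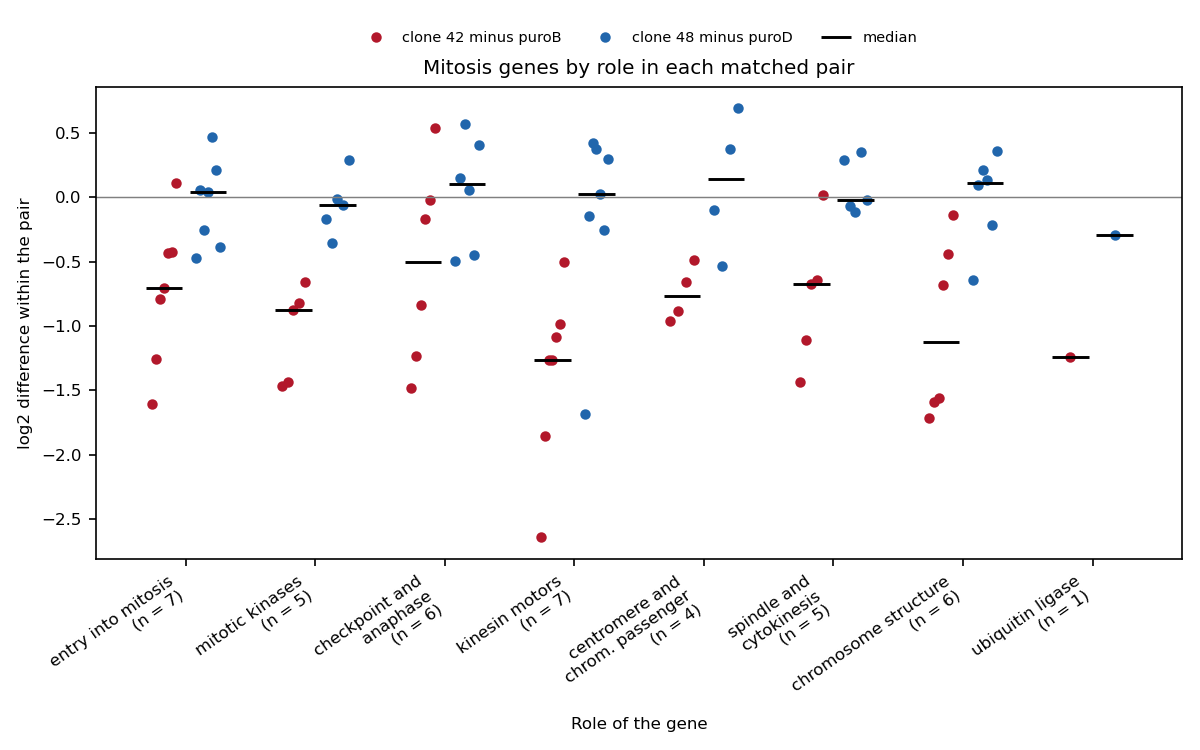
log2 difference of each tested mitosis gene within the pair of clone 42 (red) and within the pair of clone 48 (blue), by role; black bars are medians. Red medians lie between -1.26 and -0.50, blue medians between -0.30 and 0.14.

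The 4 tested centromere and passenger genes were all under puroB in clone 42 (median -0.77), and 2 of them lower in clone 48 than in puroD (median 0.14). Cenpa, the histone variant that marks centromeres, had 406 and 867 in clones 42 and 48, next to 790 and 930 in puroB and puroD. Birc5, survivin, had 969, 3231, 1529 and 2485, the clones of the second pair being the higher ones. Incenp, the scaffold of the passenger complex, had 561, 905, 1034 and 1310, and both controls exceeded both Nurr1-labelled clones (mean -0.71 ± 0.30, SE; limma adjusted p = 0.578). Rcc2, which helps place the passenger complex, had 1829, 3374, 2566 and 2088, and its clone 48 signal was the highest.

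For spindle and cytokinesis genes, clone 42 was under puroB in 4 of 5 (median -0.67; -0.019 in the second pair). Ect2, the exchange factor that switches on RhoA for the cleavage furrow, had 770 in clone 42, against 2503 in clone 48, 2080 in puroB and 2045 in puroD. Racgap1, its partner at the central spindle, had 750 against 1697, 1616 and 1780 in the same clones. In both, 3 arrays were close and clone 42 was apart from them, 2.70-fold and 2.15-fold under puroB. Prc1, which bundles central spindle microtubules, had 1202, 3205, 1883 and 2513 in clone 42, clone 48, puroB and puroD, and Tacc3, a stabiliser of spindle microtubules, 138, 334, 220 and 362. The tubulin-binding protein Stmn1 hardly differed within pairs (0.02 and -0.02 on the log2 scale), its signals being 8727 in clone 42, 8627 in puroB, 11094 in clone 48 and 11239 in puroD.

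Clone 42 was under puroB for all 6 tested chromosome structure genes, with a median of -1.12, and 2 were lower in clone 48 than in puroD, with a median of 0.11. Top2a, which untangles sister chromatids, had 583 and 1195 in clones 42 and 48, and 1916 and 1862 in puroB and puroD. The controls coincided, both Nurr1-labelled clones were lower, and the mean log2 difference was -1.18 ± 0.34 (SE; limma adjusted p = 0.227). With all 4 arrays in the fit, the adjusted p for Top2a ranged over the alternatives from 0.0379, where only probe sets above the median on all 4 arrays were tested, to 0.903 with no filter. Mki67, the proliferation marker that coats mitotic chromosomes, had 531, 2043, 1565 and 1761 in clone 42, clone 48, puroB and puroD, and the condensin subunit Ncaph 206, 714, 622 and 670. For these genes clone 42 was under puroB 2.95-fold and 3.01-fold, while clone 48 was the highest array. The condensin ATPases differed less: Smc4 had 1246, 2715, 2003 and 2470, and Smc2 1778, 3001, 1957 and 2339. Hmgb2, a chromatin protein of dividing cells, had 491, 708, 665 and 822 at 93250_r_at, whose suffix is also that of the Ube2c probe set. Traip, a ubiquitin ligase of mitotic and replication stress responses, had 153 and 298 in clones 42 and 48, next to 361 and 366 in puroB and puroD, with -1.24 and -0.30 in the pairs.

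Of the 41 tested members, 8 had several tested probe sets, and these did not always give the same differences. Rcc2 disagreed most: its brightest probe set gave -0.49 and 0.69 in the pairs, whereas 160206_at, with 151 and 79.1 in clones 42 and 48, and 468 and 210 in puroB and puroD, gave -1.64 and -1.41. The probe set 162407_at of Traip gave -1.79 and -2.32, with 61.4 and 44.8 in clones 42 and 48 against 213 and 223 in the controls, and the clone 42 signal was under the highest of these controls on that array. For Incenp, 104468_at gave -1.13 and -1.45, from 169 and 71.8 against 370 and 196 in the controls. These dimmer probe sets were over 2-fold lower in both pairs, which the brighter ones were not. Mean log2 differences and limma adjusted p-values were -1.52 ± 0.36 (SE) and 0.113 for Rcc2, -2.05 ± 0.48 and 0.113 for Traip, and -1.29 ± 0.37 and 0.232 for Incenp.

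In the other genes the first pair had the lower value at every probe set. Foxm1 at 98305_at had 80.3 in clone 42 against 332 in clone 48, 387 in puroB and 332 in puroD, a difference of -2.27 in the first pair and -0.0018 in the second. At the 3 probe sets of Plk1, clone 42 was 2.71-fold, 1.99-fold and 1.72-fold under puroB. The log2 differences in the second pair were -0.35, 0.35 and -0.38, so the sign there depends on the probe set. Both controls exceeded both Nurr1-labelled clones only at the brightest, 101350_g_at. Kif20a gave -1.26 and -1.13 in the first pair, Ncaph -1.59 and -0.83, and Cdc25c -0.71 and -0.83. In the second pair the same 3 genes gave values between -0.02 and 0.39.

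**Figure D5:**
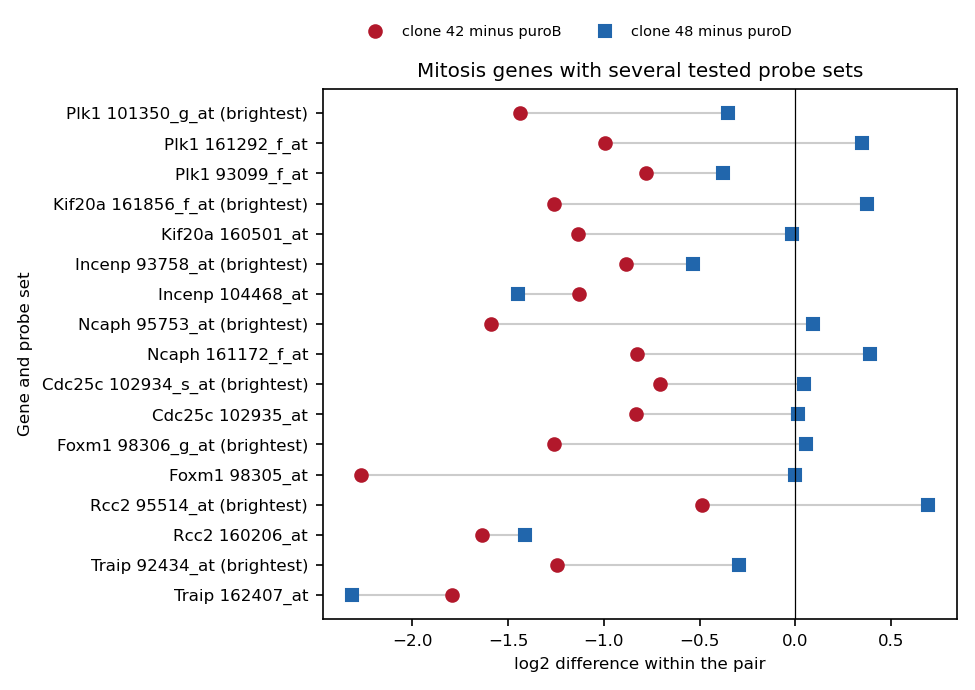
log2 difference in the pair of clone 42 (red circles) and of clone 48 (blue squares) for every tested probe set of the 8 mitosis genes with several; the brightest is listed first. Red circles are left of 0 for all 17 probe sets, and blue squares lie beyond -1 for 1 probe set each of Incenp, Rcc2 and Traip.

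Other genes of the pathway were counted from 3 lists of genes grouped by known function, also chosen with earlier results of these data known. Of 18 tested spindle, kinetochore and cytokinesis genes outside the members, clone 42 was under puroB in 16 (median -0.60) and clone 48 under puroD in 6 (median 0.081). Nusap1, which binds spindle microtubules, had -1.02 and 0.77, and Cdca3, a factor that promotes mitotic entry, -1.13 and 0.24. Anln, the cleavage furrow scaffold anillin, had -0.89 and -0.43. Of 17 cohesin, condensin and anaphase-promoting complex partners, 15 were lower in the first pair (median -0.37) and 11 in the second (median -0.084). Sgo1, shugoshin, which protects centromeric cohesion, was low in both Nurr1-labelled clones, with 111 and 148 against 321 in puroB and 339 in puroD, or -1.53 and -1.19 (limma adjusted p = 0.153). The cohesin ATPase Smc3 had -1.50 and -0.05, and the anaphase-promoting complex subunit Cdc23 -0.72 and 1.16.

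Of 21 tested regulators of mitotic entry and of mitotic gene transcription, clone 42 was under puroB in 17 (median -0.50) and clone 48 under puroD in 14 (median -0.060). Mybl2, which with the MuvB complex activates mitotic promoters, had 40.1 in clone 42, under the floor, against 299 in puroB, and 315 in clone 48 against 455 in puroD. Wee1, which inhibits Cdk1, had -1.31 and -0.07, and the checkpoint kinase Chek1 -1.16 and -0.21. Among NF-Y subunits, Nfya had -0.50 and -0.02, Nfyb -0.75 and -0.25, and Nfyc 0.09 and 0.64. Cdkn1a, which encodes the Cdk inhibitor p21, had -0.58 and -0.63, with signals of 649 and 429 in clones 42 and 48, and 967 and 664 in puroB and puroD. In these 3 lists 0 genes passed limma's test in either direction. An unadjusted p under 0.05 was reached as lower by 0 of 18, 3 of 17 and 3 of 21 genes, in the order given, against 4.46% of all tested genes, and as higher by 0, against 2.36%.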

How the data were processed

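The deposited table gives 1 linear signal intensity per probe set and array, computed by the authors with MAS5, per the submitters' processing notes. Here each array was scaled to a mean of 500 after trimming 2%, a floor was set at the 30th percentile of all signals (40.3), and log2 was taken. After leaving out 66 control probe sets, tests kept probe sets above the overall median on at least 2 of 4 arrays. The fit used limma 3.58.1 in R 4.3.3 (lmFit with a block for the matched pair, trended eBayes, Benjamini-Hochberg adjustment over all 6419 probe sets, threshold 0.05). The sample descriptions state the pairing, and deviations of paired arrays from their group means correlated at r = 0.19 over probe sets. With 1 array per clone and 2 clones per group, p-values and SE rest on 1 residual degree of freedom and a prior of 13.15. The residual part is the disagreement of a probe set's 2 pair differences. The prior is a variance pooled over all tested probe sets by intensity. Most of the spread behind a p-value or SE therefore comes from other probe sets, and not from the clones' own disagreement at that probe set. The code of the fit was run on simulated data with independent noise and no pair or clone structure. That run cannot show whether the fit's assumptions hold for these clones. The array number limits the precision, and probe-set signals are not comparable between genes.

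Genes were named where they passed the test, differed 2-fold in a pair or had probe sets that differ in sign. Signals of other members were added after their values were seen. The members and lists were chosen with earlier results of these data known. Alternatives tried were the scaling, floor, filter, pairing, intensity trend and leaving out each array. Symbols come from the platform's probe annotation, and promoter windows from RefSeq (GRCm38.p6). In 21 of the 44 windows of members, the annotated start is the gene's outer end.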

Additional observations from a re-analysis of the deposited data

Results flagged for a closer look

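At the brightest probe set, the 2 matched pairs differed in opposite directions for 11 members, and by over 2-fold from each other. Each was lower in clone 42 than in puroB and higher in clone 48 than in puroD. Of all 4957 tested genes, 6.09% showed this. The difference was not tested, since each clone has 1 array. On the log2 scale, the difference in the first pair minus that in the second was -1.77 for Mki67, -1.73 for Ect2, -1.68 for Kif4 and -1.68 for Ncaph. It was -1.64 for Kif20a, -1.41 for Cdc20, -1.38 for Bub1 and -1.31 for Foxm1. For Rcc2 it was -1.18, for Kif11 -1.11 and for Birc5 -1.04. In 8 of these genes the difference in the first pair alone exceeded 2-fold, whereas none of the 11 reached 2-fold in the second. In the second pair Foxm1 (0.053) and Kif11 (0.024) hardly differed. Dimmer tested probe sets gave the same sign in both pairs for Rcc2 (-1.64 and -1.41), Foxm1 (-2.27 and -0.0018) and Kif20a (-1.13 and -0.018). The dimmer probe set of Ncaph kept opposite signs (-0.83 and 0.39). No outlying sample could be looked for in groups of 2.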

How the results depend on the processing

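The number of mitosis members passing limma's test was 1 as reported. It was 0 with quantile normalization, no floor, no filter or no replicate block, and 2 (Kifc1 and Traip) with no intensity trend. An unadjusted p under 0.05 was reached by 11 of 50 member probe sets with quantile normalization and 13 of 50 with no floor. With no filter it was 6 of 58, and with no replicate block 8 of 50. The share of all probe sets was not counted in these fits, so these numbers have no background beside them. The number of members passing stayed at 1 with median scaling, a floor at the highest unspiked control, or a filter on all 4 arrays. In the last the gene was Top2a. Kifc1 was not tested there, since its clone 42 signal (54.7) was under the median of all values. Leaving out 1 array left 1 clone in a group. The members' median was then 0.16 without clone 42, -1.08 without clone 48, -0.67 without puroB and -0.17 without puroD. These fits had no pairing, and the lone clone is assumed to vary like the other group. The unspiked floor was chosen after seeing the data, since the planned floor, as worded, left no probe set to define it and was not run. The members' median in the first pair lay between -0.96 and -0.76 over the alternatives. In the second pair it lay between -0.010 and 0.24, the highest with median scaling, so its sign is not settled. The median over both pairs ranged from -1.08 to 0.16 when 1 array was left out, and was above 0 only without clone 42. Clone 42 was the lowest array for 37 members with median scaling and 39 with quantile normalization. The single-gene alternatives were run for 8 probe sets, those of Kifc1, Top2a, Ccnb2 and Kif23 and the dimmer ones of Incenp, Foxm1, Rcc2 and Traip. These were taken because they passed the test or had a mean difference of 2-fold or more. In these the mean difference kept its sign, which differences of that size make likely and which says nothing of the other members. MAS5 signals near the floor, such as those of Kifc1 and the dimmer probe set of Traip in clone 42, have little precision.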

Other observations

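In the promoter windows, a CHR core lay 20 to 40 bases after an NF-Y box core in 20 of 44 member windows (45.5%), against 0.895% of all windows. This spacing was chosen after the positions were seen, so it is a description. No match to either motif was in the windows of Pttg1, Birc5, Rcc2, Mad2l1, Tacc3 or Ncaph.

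Several member probe sets did not pass the filter. Bub1 at 162264_s_at had 11.5 in clone 42 and 12.1 in clone 48, both under the floor, against 91.3 in puroB and 74.8 in puroD. Its other untested probe set, 97095_at, had 12.4, 66.6, 51.2 and 21.7 in clone 42, clone 48, puroB and puroD. Mki67 at 161931_r_at had 156, 90.8, 136 and 89.7 in the same clones, an order unlike that of its tested probe set.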
